A study of Mus musculus with 15 samples.

Results

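Solute carriers are membrane proteins that move sugars, amino acids, nucleosides, vitamins, metals, ions, lipids and peptides across the plasma membrane and the membranes of organelles. A T cell that leaves quiescence grows and copies its DNA, and each of these steps needs material from outside the cell or from the cytosol. Carriers of the Slc25 family serve the inner mitochondrial membrane, Slc35 carriers serve the Golgi apparatus and endoplasmic reticulum, and Slc30 and Slc39 carriers move zinc out of and into the cytosol.

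The genes described here were all those whose symbol begins with Slc and a number, apart from 10 well studied transporters of glucose, lactate and amino acids (Slc2a1, Slc2a3, Slc7a5, Slc3a2, Slc1a5, Slc1a4, Slc38a1, Slc38a2, Slc16a1 and Slc16a3). They numbered 186 of the 11836 genes in either of 2 deposited tables, in 41 families. The first table held 171 of them among 11262 genes, the second held 176 among 11211 genes, and 161 were in both. A few carry the name without being carriers, such as the scaffold protein gene Slc9a3r1 and the pseudogene Slc2a4rg-ps, which overlaps another gene. In RefSeq, 365 mouse protein-coding genes have such a symbol. All were placed on GRCm38.p6, by Entrez identifier except for 1 placed by its former symbol (Slc24a6, now Slc8b1). Another annotated gene overlaps 76 of the 186. The library kit was stranded, but the record does not say whether reads were counted by strand, so the values of these 76 are uncertain, and they are named as overlapping where they appear.

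The study asked how inhibition of PI3K p110δ changes CD8 T cells. The first table held P14 CD8 T cells, which carry a transgenic TCR for a peptide of LCMV, from lymph nodes of female mice of 9 to 13 weeks. Each of 3 replicates was a pool of cells from 3 mice. Naïve cells were sorted ex vivo, and activated cells were sorted as CD8 positive and DAPI negative after culture. TCR activated cells had 24 h in culture with the gp33–41 peptide (100 ng/ml) and the cytokines IL-12 (2 ng/ml) and IL-2 (20 ng/ml), and PI3Kdi cells had the same with 10 µM IC87114. The second table held CTL that were activated for 48 h and then kept for 4 days in 20 ng/ml IL-2. They were washed and cultured for 24 h with 20 ng/ml IL-2 or without it. The series design says that these 6 libraries were run on the same lane and are not part of the manuscript. Values are FPKM as the authors deposited them, with blanks in the first table given as 0, and are given in the order of replicates 1, 2 and 3.

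All 7 CD8 T cell marker mRNA that were looked up were listed in every library. Cd8a had FPKM of 556, 546 and 529 in naïve, 167, 187 and 189 in TCR activated and 216, 228 and 202 in PI3Kdi cells. In CTL it had 117, 109.6 and 107 with IL-2 and 118, 115 and 134 without. After TCR activation all 7 (Cd8a, Cd8b1, Cd3d, Cd3e, Cd3g, Lck and Thy1) were called lower. Without IL-2 Cd8b1, Cd3d and Cd3g were called higher, Cd8b1 from 221, 245 and 215 to 546, 473 and 523 FPKM, and the other 4 were not called. The solute carrier mRNA together made up 2935 ± 8.61 FPKM (mean ± SD) in naïve, 3768 ± 163 in TCR activated and 3679 ± 36.3 in PI3Kdi cells. In CTL they made up 3181 ± 19.2 with IL-2 and 2739 ± 6.98 without. Their median FPKM was 7.54 in naïve, 6.23 in TCR activated, 6.38 in PI3Kdi cells, 6.63 in CTL with IL-2 and 7.07 in CTL without. The mean FPKM was at least 1 for 150 of 171 in the first table and 152 of 176 in the second. The highest in both were Slc25a5, Slc25a3, Slc25a4, Slc44a2 and Slc9a3r1, of which Slc25a3 and Slc44a2 overlap another gene.

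The first comparison asks which carrier mRNA accompany the exit from quiescence in 24 h of antigen stimulation. Equal numbers of carrier mRNA were called higher and lower. The 10 largest rises with a mean FPKM of at least 1 in either group included carriers of nucleobases, glycine, nucleosides, aspartate and folate. The 10 largest falls included carriers of monocarboxylates, urea, neutral amino acids and peptides. In bulk RNA, fewer cells of a type and less RNA per cell cannot be told apart.

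A change was called where the adjusted p was under 0.05 (limma on log2(FPKM + 0.1), Benjamini-Hochberg over all genes of the table) with a fold change above 2 or below 0.5. The added 0.1 makes fold changes of genes near 0 smaller than the ratio of their FPKM. After TCR activation 45 of the 171 carrier mRNA rose (26.3%, against 25.0% of all genes) and 45 fell (26.3%, against 23.7%). The median log2 fold change was 0.08, and 0.01 for all genes. Each of these 90 calls had the same direction in 3 of 3 same-numbered pairs, with no overlap between the 3 libraries of each group. The call itself favours such separation. It was not set beside that of all called genes, so it describes these calls only. Rises and falls stood side by side in most of the larger families. No family or list was tested against the shares of all genes. Among markers of other cells Cd79b, Pecam1 and Itgam were called lower and Zbtb46 and Mpeg1 higher, and Cd22, Cd68, Cd74, Cd79a, Foxp3, H2-Aa, H2-Ab1 and Ms4a1 were not called. Their bearing on the carriers was not tested.

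**Figure D1:**
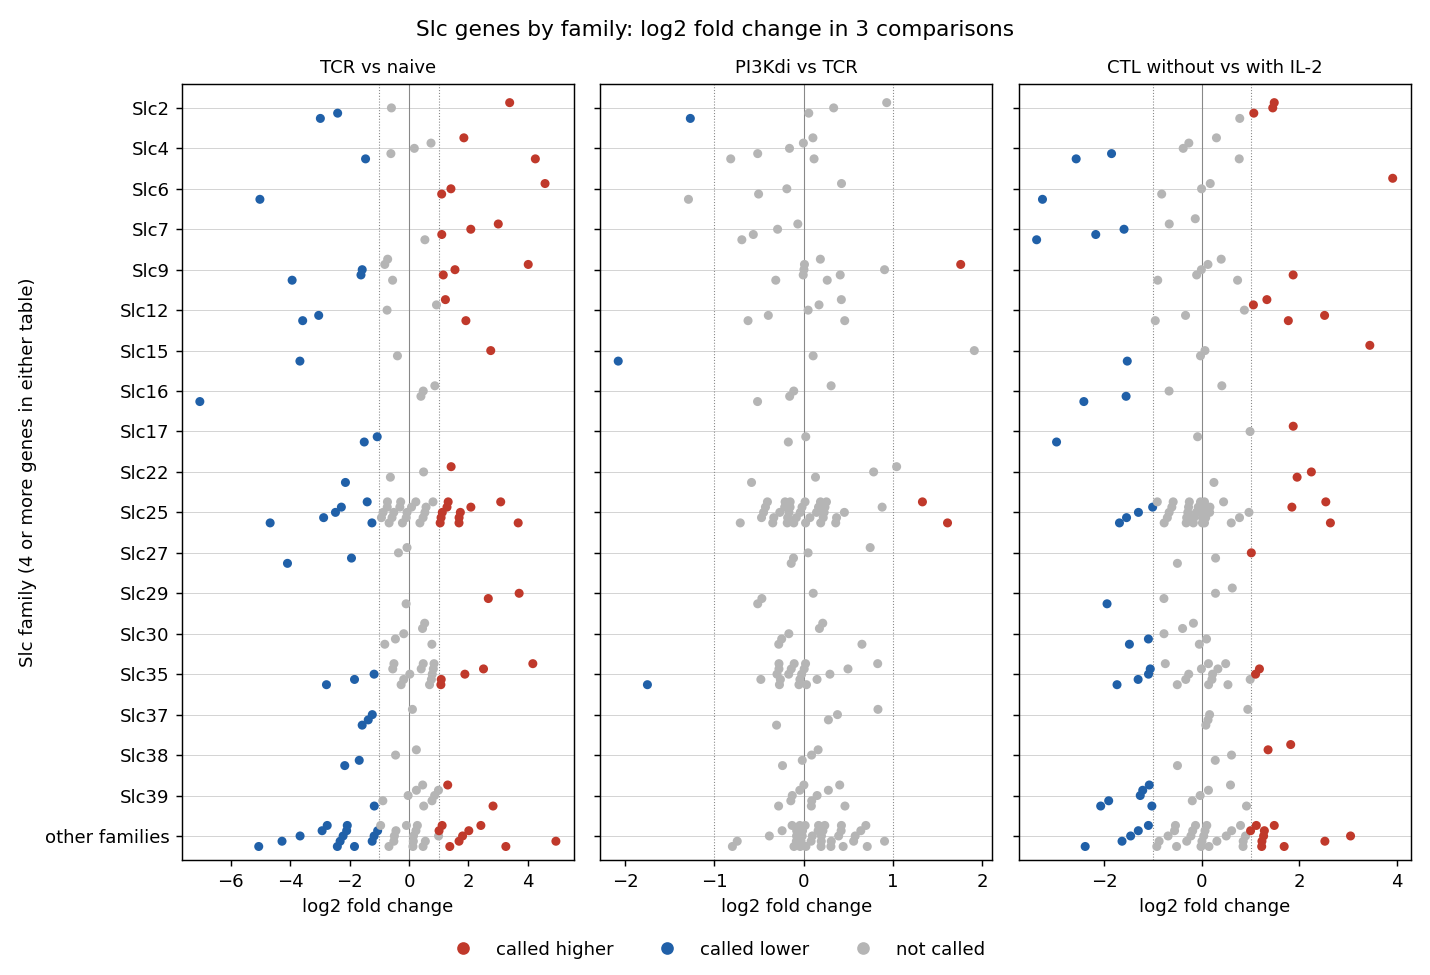
Log2 fold change of each solute carrier mRNA in the 3 comparisons, coloured as called higher, called lower or not called. Rows are families with at least 4 genes in either table, and the remaining families pooled.

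Mitochondria of activated cells supply ATP, citrate, aspartate and one-carbon units, and the Slc25 carriers link these to the cytosol. Of 36 Slc25 mRNA 11 rose and 6 fell after TCR activation, beside 25.0% and 23.7% of all genes. The median log2 fold change of the 36 was 0.01. Their summed FPKM was 1021 ± 107 in naïve and 2056 ± 297 in TCR activated cells, a gain carried by the most abundant members. The ADP/ATP carrier Slc25a5 (Entrez 11740, chrX:36795597-36798808) went from 268, 320.1 and 210.4 FPKM to 654, 972 and 1035 (limma, log2 fold change 1.73, SE 0.18, adjusted p = 3.8e-06). The phosphate carrier Slc25a3 went from 190.3, 211 and 160.3 to 319.6, 426 and 447 (limma, log2 fold change 1.08, SE 0.14, adjusted p = 1.7e-05), and its log2 fold change was 0.88 without replicate 3, below the limit. For both genes every activated library stood above every naïve library.

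The steepest mitochondrial rise was in Slc25a13 (Entrez 50799, chr6:6041218-6217304), the aspartate and glutamate carrier of the malate shuttle, from 1.80, 1.32 and 1.26 to 15.9, 21.8 and 21.8 FPKM (limma, log2 fold change 3.68, SE 0.16, adjusted p = 2.6e-09). The pyrimidine nucleotide carrier Slc25a33 went from 2.01, 2.83 and 1.57 to 12, 23.7 and 21.9 (limma, log2 fold change 3.09, SE 0.25, adjusted p = 4.8e-07). In both, the naïve libraries were uniformly low and the activated ones far above them. Carriers of citrate (Slc25a1, 2.08) and dicarboxylates (Slc25a10, 1.68) rose together. So did those of ornithine (Slc25a15, 1.32), glutathione (Slc25a39, 1.69), folate (Slc25a32, 1.05) and, in peroxisomes, coenzyme A (Slc25a17, 1.28). The rise of Slc25a32 was 0.87 without replicate 3. Slc25a47, a carrier best known from liver, rose from a mean of 0.97 to 2.20 FPKM (1.12). The values of Slc25a39 are uncertain because another gene overlaps it, as is the case for Slc25a3 above.

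Other mitochondrial carriers fell. Slc25a45, a carrier related to those for carnitine esters, went from 27.1, 28.5 and 27.7 to 1.26, 0.60 and 1.26 FPKM (limma, log2 fold change -4.68, SE 0.27, adjusted p = 2.3e-08). It fell furthest in the family, and no activated library reached any naïve one. The calcium-regulated ATP-magnesium carrier Slc25a23 went from a mean of 17.6 to 3.14 FPKM (-2.48) and the uncoupling-like carrier Slc25a27 from 3.81 to 0.78 (-2.28). Slc25a35, whose substrate is not settled, went from 4.60 to 0.56 (-2.87) and overlaps another gene. The pyrimidine nucleotide carrier Slc25a36 (-1.41) fell while its relative Slc25a33 rose. The basic amino acid carrier Slc25a29 fell by a log2 of 1.25, or 0.99 without replicate 1, which is under the limit. Neither of the 2 mitochondrial iron carriers measured was called by limma, with 1 of them at an adjusted as well as an unadjusted p under 0.05 but within the fold limit.

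Nucleosides, nucleobases and folate feed DNA and RNA synthesis. Slc43a3 (Entrez 58207, chr2:84936545-84958509), a purine nucleobase carrier in a family named for amino acids, had the largest rise in log2 fold change with 0.1 added. It went from 1.57, 1.24 and 1.07 to 51.5, 38.7 and 38.2 FPKM (limma, log2 fold change 4.95, SE 0.16, adjusted p = 2.5e-10). Over the alternatives Slc35d3 reached 6.71, Slc6a9 6.22 and Slc4a11 5.74, above the 5.04 that Slc43a3 reached at most. The equilibrative nucleoside carrier Slc29a2 went from 1.46, 1.54 and 1.45 to 22.8, 17.96 and 21.3 (limma, log2 fold change 3.71, SE 0.11, adjusted p = 2.1e-10), and Slc29a1 from a mean of 14.2 to 91.2 (2.67). Slc43a3, Slc29a2 and Slc29a1 were lower in every naïve library than in any activated one. The sodium-coupled nucleoside carrier Slc28a2 moved the opposite way, from 33.8, 32.01 and 27.5 to 2.59, 2.65 and 1.88 FPKM (limma, log2 fold change -3.67, SE 0.15, adjusted p = 1.5e-09). The reduced folate carrier Slc19a1 (Entrez 20509, chr10:77032269-77050432) went from 9.80, 9.06 and 8.47 to 88.98, 84.7 and 90.5 (limma, log2 fold change 3.26, SE 0.08, adjusted p = 4.4e-11). The thiamine carrier Slc19a2 (2.42) and the biotin and pantothenate carrier Slc5a6 (1.37) rose as well. The proton-coupled folate carrier Slc46a1 rose from 0.30 to 0.76 FPKM (1.11, but 0.84 without replicate 1). The lysosomal carrier Slc46a3, from 5.44, 6.33 and 5.56 to 0.20, 0.23 and 0.18 FPKM (-4.28), and the riboflavin carrier Slc52a3 (-1.84) fell. In all, of 10 vitamin carriers 5 rose and 2 fell, beside 25.0% and 23.7% of all genes. Of the genes named here Slc6a9, Slc5a6 and Slc46a1 overlap another gene.

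Among 17 amino acid carriers of the plasma membrane and lysosome 7 rose and 6 fell, beside 25.0% and 23.7% of all genes. The glycine carrier Slc6a9 went from 0.02, 0.02 and 0.07 to 9.54, 1.80 and 1.73 FPKM (limma, log2 fold change 4.58, SE 0.54, adjusted p = 1.0e-05), with replicate 1 the highest activated library by far. The cationic amino acid carrier Slc7a1 went from 13.6, 12.9 and 13.97 to 72.6, 50.1 and 51.8 (limma, log2 fold change 2.08, SE 0.13, adjusted p = 3.9e-08), with each activated library far above each naïve one. Its relative Slc7a3 (3.01), the exchanger Slc7a6 (1.10), the large neutral amino acid carrier Slc43a1 (1.80) and the taurine carrier Slc6a6 (1.10) rose too, and the remaining rise was the nucleobase carrier Slc43a3. The log2 fold change of Slc7a3 was as low as 2.22 with a replicate or library left out. Slc6a19 (Entrez 74338, chr13:73679745-73700780), the neutral amino acid carrier of gut and kidney, went from 30.7, 30.1 and 35.5 to 0.49, 0.93 and 1.49 FPKM (limma, log2 fold change -5.02, SE 0.33, adjusted p = 7.1e-08). The facilitated carrier Slc43a2 (-2.93), the heavy chain Slc3a1 (-2.08) and the lysosomal carriers Slc36a1 (-2.10) and Slc38a9 (-1.68) fell, with Slc38a6 (-2.16). The overlapping genes here are Slc6a9, Slc7a3, Slc43a1, Slc6a6, Slc6a19, Slc43a2, Slc3a1, Slc38a9 and Slc38a6.

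Zinc, copper, iron and magnesium carriers changed in both directions. Of 11 Slc39 zinc importers 2 rose and 1 fell, beside 25.0% and 23.7% of all genes. The summed FPKM of the 11 was 145 ± 8.36 in naïve and 214 ± 15.2 in TCR activated cells. Slc39a8 went from 1.06, 1.03 and 1.28 to 9.88, 8.04 and 7.89 FPKM (limma, log2 fold change 2.83, SE 0.14, adjusted p = 6.4e-09) and Slc39a10 from 8.79, 6.85 and 7.36 to 21.2, 21.3 and 15.1 (limma, log2 fold change 1.30, SE 0.15, adjusted p = 1.0e-05). Each activated library of these was above each naïve one. The most abundant, Slc39a7, had 60.8, 53.5 and 57.6 FPKM in naïve and 85.7, 72.7 and 78.2 in TCR activated cells and was not called (0.46). Slc39a3 fell (-1.17), and Slc39a14, at 0.99, passed the fold limit without replicate 1 (1.12). None of 6 Slc30 zinc exporters was called by limma. Of them 5 had an adjusted as well as an unadjusted p under 0.05 but missed the fold limit. The most abundant, Slc30a5, had 24.7, 23.8 and 22.5 FPKM in naïve and 34.04, 31.4 and 31.99 in TCR activated cells. The copper importer Slc31a1 rose from a mean of 4.82 to 19.8 FPKM (2.01), while its relative Slc31a2 fell (-2.22). The magnesium carrier Slc41a3 fell (-2.32), as did the iron importer Slc11a2 (-1.06, or -0.99 without replicate 3). Slc39a8, Slc31a1 and Slc11a2 overlap another gene.

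The largest fall of all was in Slc16a5 (Entrez 217316, chr11:115462405-115474398), a carrier of the monocarboxylate family, from 34.7, 39.1 and 40.01 to 0.12, 0.25 and 0.21 FPKM (limma, log2 fold change -7.04, SE 0.27, adjusted p = 8.6e-10). The potassium chloride cotransporter Slc12a7 (Entrez 20499, chr13:73733052-73816754), with the highest FPKM of its family in naïve but not in TCR activated cells, went from 120, 111 and 137 to 11.1, 9.88 and 9.40 (limma, log2 fold change -3.58, SE 0.12, adjusted p = 4.8e-10). The urea carrier Slc14a1 went from 17.9, 20.6 and 19.1 to 0.44, 0.41 and 0.60 (limma, log2 fold change -5.06, SE 0.32, adjusted p = 5.0e-08). All 3 were well detected in naïve cells, and the activated libraries kept between little and almost none of each. In the family of Slc12a7 the sodium-coupled Slc12a2 (1.92) and the potassium chloride cotransporter Slc12a4 (1.23) rose. Slc16a5, Slc14a1 and Slc12a4 overlap another gene.

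The mRNA for exchange of protons, bicarbonate and other ions changed in both directions. Among 23 ion and pH carriers 7 rose and 7 fell, beside 25.0% and 23.7% of all genes. The proton-conducting Slc4a11 and the sodium and proton exchanger Slc9a5 rose steeply. Slc4a11 went from 0.02, 0.05 and 0.05 to 5.50, 2.38 and 1.25 FPKM (limma, log2 fold change 4.25, SE 0.44, adjusted p = 3.4e-06) and Slc9a5 from 0.46, 0.33 and 0.53 to 14.1, 6.88 and 6.38 (limma, log2 fold change 4.01, SE 0.28, adjusted p = 1.1e-07). Replicate 1 was the highest activated library in each, and the lowest activated library was still above all naïve ones. The bicarbonate carrier Slc4a7 (1.85) and the calcium exchanger Slc24a3 (1.68) rose too. The proton exchanger Slc9a2 rose only to 0.20 FPKM (1.15, and 0.73 without replicate 3). The endosomal proton exchanger Slc9a9 went from 23.3, 25.8 and 25.6 to 1.87, 1.18 and 1.62 FPKM (limma, log2 fold change -3.94, SE 0.20, adjusted p = 8.0e-09). The sulfate carrier Slc26a11 (-2.75), the mitochondrial calcium exchanger Slc24a6 (-1.17) and the Golgi exchanger Slc9a7 (-1.58) fell. The most abundant mRNA named for the Slc4 and Slc9 families are not carriers. Slc4a1ap had 18.2, 18.4 and 18.8 FPKM in naïve and 20.2, 21.9 and 20.8 in TCR activated cells and was not called (0.18), and the scaffold mRNA Slc9a3r1 fell from 142, 139.8 and 164 to 46.3, 47.3 and 51.4 FPKM (-1.62). Slc9a5, Slc24a3, Slc9a9, Slc26a11 and Slc9a7 overlap another gene.

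Of 10 sugar carriers outside the well studied ones 5 fell and 1 rose, beside 23.7% and 25.0% of all genes. The difference was not tested. The falls were the urate carrier Slc2a9 (-2.98), the sugar phosphate carriers Slc37a1 (-1.24), Slc37a2 (-1.58) and Slc37a3 (-1.37), and Slc50a1 (-1.24). The rise was the lysosomal hexose carrier Slc2a6 (Entrez 227659, chr2:27021363-27028000), from 0.07, 0.03 and 0.11 to 1.61, 1.19 and 2.32 FPKM (limma, log2 fold change 3.39, SE 0.33, adjusted p = 2.2e-06). Of 20 Slc35 nucleotide sugar carriers and their relatives 5 rose and 3 fell, beside 25.0% and 23.7% of all genes. Slc35d3 (Entrez 76157, chr10:19847917-19856634) went from 0, 0.06 and 0 to 4.35, 1.72 and 1.05 (limma, log2 fold change 4.17, SE 0.44, adjusted p = 3.8e-06). Both started near 0 in every naïve library. Slc35f5 (2.51), Slc35f2 (1.88) and the most abundant of them, Slc35a4, from 38.6, 38.8 and 42.7 to 79.2, 82.1 and 91.8 FPKM (1.07), rose, as did Slc35e4 (1.08, though 0.81 without replicate 2). Slc35d2 (-2.78), Slc35b3 (-1.84) and Slc35a5 (-1.18) fell. Slc2a9, Slc37a2, Slc35a4 and Slc35b3 overlap another gene.

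Of 18 carriers for organic ions, lipids and peptides 3 rose and 6 fell, beside 25.0% and 23.7% of all genes. The peptide carriers split, since the lysosomal Slc15a3 rose from 0.10, 0.06 and 0.07 to 1.41, 0.99 and 0.91 FPKM (limma, log2 fold change 2.75, SE 0.31, adjusted p = 6.7e-06) and the plasma membrane Slc15a2 fell from 5.58, 1.07 and 6.50 to 0.17, 0.07 and 0.36 (limma, log2 fold change -3.67, SE 0.64, adjusted p = 2.5e-04). The fatty acid carrier Slc27a6 fell from 3.88, 3.08 and 4.59 to 0.13, 0.16 and 0.10 (limma, log2 fold change -4.09, SE 0.28, adjusted p = 8.6e-08). None of these 3 genes had a library that crossed into the other group. Slc27a1 (-1.94), the lipocalin 2 receptor Slc22a17 (-2.14) and the choline carrier Slc44a2 (-2.41) fell, the last from a mean of 222 to 42.2 FPKM. The creatine carrier Slc6a8 (1.41) and the carnitine carrier Slc22a21 (1.42) rose but stayed under 1 FPKM. Of the remaining carboxylate and phosphate carriers the phosphate importer Slc20a2 rose (1.01, with 0.99 without replicate 1, 0.96 without replicate 2 and 0.91 without only the TCR activated library of replicate 1). The vesicular nucleotide carrier Slc17a9 (-1.51) and the lysosomal sialic acid carrier Slc17a5 (-1.07, or -0.94 without replicate 2) fell. Slc15a2, Slc15a3, Slc44a2, Slc6a8, Slc22a21, Slc20a2 and Slc17a9 overlap another gene.

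The second comparison asks which of these mRNA depend on PI3K p110δ during activation. Few carriers passed both the p and the fold limit with its inhibitor, as was the case for all genes. Most carriers that antigen induced or repressed were not called with PI3Kdi. Those that were called had low FPKM in activated cells. The TCR activated libraries are the same ones as in the first comparison, so fold changes of the 2 comparisons are given side by side only.

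With PI3Kdi 3 of 171 carrier mRNA were higher (1.75%, against 3.04% of all genes) and 3 were lower (1.75%, against 2.10%). Their median log2 fold change was 0.01, beside -0.01 for all genes. By limma 15 were higher and 16 lower at an adjusted p under 0.05 with no fold limit, against 9.35% and 8.19% of all genes. The 6 called mRNA had one direction in 3 of 3 pairs and no overlap between groups, which was not set beside all called genes. A pseudocount of 1 left only Slc25a45 and Slc35d3 called, and with genes of mean FPKM 1 or more none was lower. With the replicate as a block the count of higher mRNA was 4. Without only the TCR activated library of replicate 1 it was 6, adding Slc22a17 (1.64), Slc25a23 (1.09) and Slc27a1 (1.07). Leaving out replicate 1, 2 or 3 gave 5, 1 and 3 higher and 1, 1 and 2 lower mRNA. The 5 without replicate 1 included Slc22a17 (1.42) and Slc27a1 (1.05).

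The mRNA higher with PI3Kdi belonged to 2 mitochondrial carriers and a proton exchanger. Slc25a45 (Entrez 107375, chr19:5877801-5885768) had 1.26, 0.60 and 1.26 FPKM in TCR activated and 2.30, 3.48 and 4.20 in PI3Kdi cells (limma, log2 fold change 1.61, SE 0.27, adjusted p = 0.00217). Slc25a35 (Entrez 71998, chr11:68968096-68972516) had 0.73, 0.60 and 0.34 and 1.35, 1.53 and 1.62 (limma, log2 fold change 1.33, SE 0.24, adjusted p = 0.00331). Slc9a2 (Entrez 226999, chr1:40681712-40768885) had 0.12, 0.18 and 0.30 and 0.81, 0.91 and 0.94 (limma, log2 fold change 1.76, SE 0.28, adjusted p = 0.00172). In each of them all 3 inhibited libraries exceeded all 3 activated ones. With replicate 2 left out of limma none kept its call, at adjusted p = 0.0504, 0.0728 and 0.0634. Slc25a45 and Slc25a35 had fallen from means of 27.8 and 4.60 FPKM in naïve cells, so PI3Kdi cells kept a little more of 2 mRNA that activation lowered. Slc9a2 had 0.03 FPKM in naïve cells, and the inhibitor raised it further above that. Slc25a35 overlaps another gene.

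The mRNA lower with PI3Kdi were all induced by the TCR from near 0. Slc15a3 (Entrez 65221, chr19:10842544-10857915) had 1.41, 0.99 and 0.91 FPKM in TCR activated and 0.09, 0.17 and 0.33 in PI3Kdi cells (limma, log2 fold change -2.08, SE 0.31, adjusted p = 0.00109), and overlaps another gene. Slc35d3 had 4.35, 1.72 and 1.05 and 0.58, 0.68 and 0.36 (limma, log2 fold change -1.75, SE 0.44, adjusted p = 0.0193). Slc2a6 had 1.61, 1.19 and 2.32 and 0.85, 0.36 and 0.77 (limma, log2 fold change -1.27, SE 0.33, adjusted p = 0.0242). The inhibited libraries were the lower ones throughout, and for Slc15a3 they approached the naïve level. Slc35d3 lost its call in limma without replicate 1 (adjusted p = 0.0906) and without replicate 2 (adjusted p = 0.121). Slc2a6 lost it without replicate 1, 2 or 3 (limma, adjusted p = 0.0803, 0.0844 and 0.0884). With a pseudocount of 0.01 neither was called (limma, adjusted p = 0.117 for Slc35d3 and 0.0715 for Slc2a6). Some markers of other cells were lower with PI3Kdi too, although activated cells had been sorted as CD8 positive. The dendritic cell markers Cd74, H2-Aa, H2-Ab1 and Zbtb46 were all called lower, and their summed FPKM was 28.9, 14.7 and 30.8 in TCR activated and 3.71, 5.42 and 4.91 in PI3Kdi cells. The B cell markers Cd22 and Ms4a1 were called lower, while Cd79a was not called, nor was Cd79b, the most abundant (2.99, 2.58 and 3.48 and 2.79, 3.31 and 3.77). Pecam1 was called higher. Any relation of these to the carriers was not tested.

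**Figure D2:**
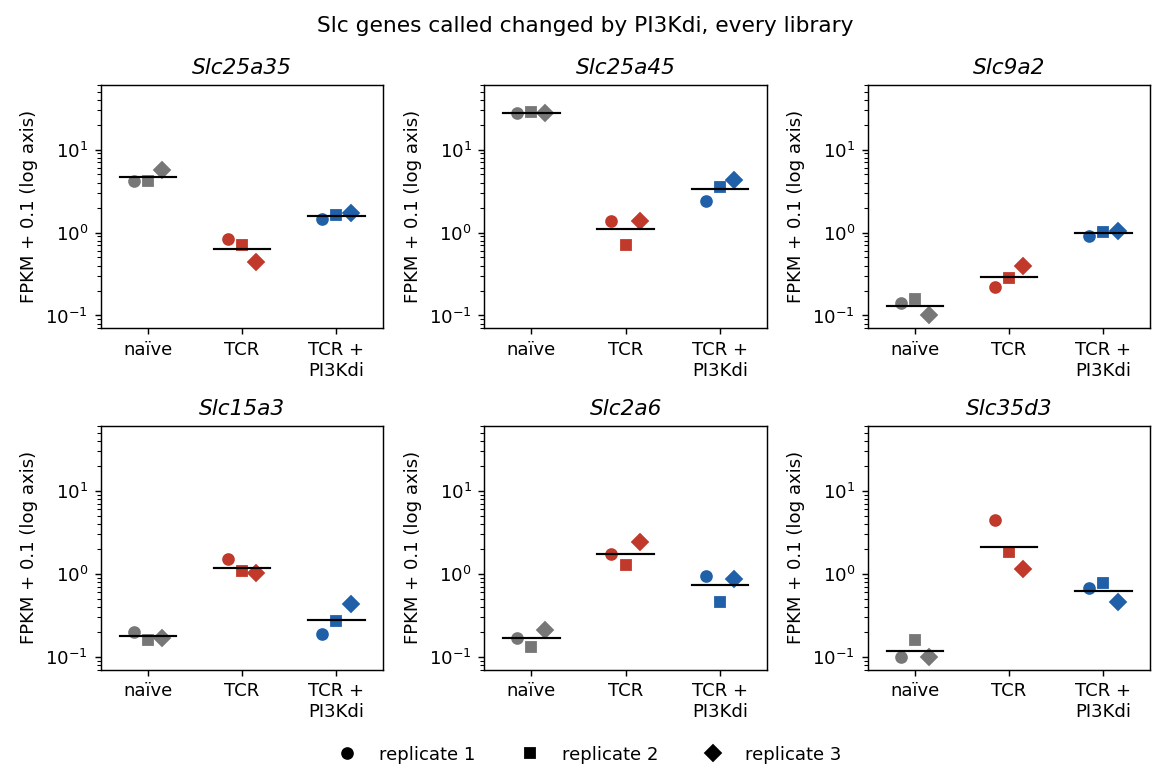
FPKM + 0.1 on a log axis, with group means as lines, of the 6 solute carrier mRNA called higher or lower with PI3Kdi, in each of the 9 libraries of naïve, TCR activated and PI3Kdi cells.

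The peptide carrier Slc15a2, at 0.17, 0.07 and 0.36 FPKM in TCR activated and 1.09, 0.44 and 1.65 in PI3Kdi cells, had a log2 fold change of 1.91 and was not called (limma, adjusted p = 0.064). It was called with the replicate as a block (limma, adjusted p = 0.00226) and without replicate 2 (limma, adjusted p = 0.0185). A fit of only the groups compared called it too. It overlaps another gene, as Slc6a9 does. The glycine carrier Slc6a9 had 9.54, 1.80 and 1.73 FPKM in TCR activated and 1.76, 1.07 and 0.95 in PI3Kdi cells, and was not called either (limma, log2 fold change -1.29, adjusted p = 0.126). Its activated libraries spread over so wide a range that the lowest lay among the inhibited ones. Within each same-numbered pair the inhibited library was the lower, and Slc6a9 was not called with the replicate as a block either.

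Several carriers with large changes on activation stayed within the fold limit under the inhibitor. Slc43a3 had 25.6, 22 and 25.5 FPKM in PI3Kdi cells (limma against TCR activated, log2 fold change -0.80, SE 0.16, adjusted p = 0.00576). Slc25a13 had 19.5, 18.4 and 19.4 (-0.04) and Slc19a1 had 73.8, 73.5 and 75.9 (-0.24). The falls in Slc16a5, which overlaps another gene, and Slc12a7 were kept, with 0.17, 0.21 and 0.44 and 9.82, 11.4 and 13.2 FPKM. All of these stood far from the naïve libraries on the same side as without the inhibitor. The Slc25 mRNA summed to 2051 ± 41.99 FPKM, beside 2056 ± 297 in TCR activated cells. Of 17 amino acid carriers, 11 Slc39 and 6 Slc30 zinc carriers none was called with PI3Kdi by limma. Among all genes 3.04% were called higher and 2.10% lower, so lists this small could hold none at that share. At an unadjusted p under 0.05 in limma these lists held 6, 2 and 3, which was not set beside all genes. At an adjusted p under 0.05 but within the fold limit, Slc43a2, Slc36a4 and Slc30a4 were higher and Slc43a3, Slc7a1 and Slc6a6 lower. Of these Slc43a2, Slc30a4 and Slc6a6 overlap another gene.

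The CTL comparison asks which carrier mRNA effector cells keep only while IL-2 is present. IL-2 sustains the growth and effector state of these cells. The 10 largest falls with a mean FPKM of at least 1 in either group included carriers of cationic amino acids, glycine, ketone bodies and folate. The 10 largest rises included carriers of neutral amino acids, peptides and sulfate.

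Without IL-2 31 of 176 carrier mRNA rose (17.6%, against 14.3% of all genes) and 32 fell (18.2%, against 13.9%). The median log2 fold change was 0.01, and -9.0e-04 for all genes. Directions were the same in 3 of 3 pairs for all 63, and the libraries of the groups did not overlap. This too was not set beside all called genes.

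Among 20 amino acid carriers 6 mRNA fell and 5 rose without IL-2, beside 13.9% and 14.3% of all genes. Slc7a1 (Entrez 11987, chr5:148327410-148399904) went from 40.5, 42.01 and 51.8 FPKM with IL-2 to 9.96, 11.4 and 8.18 without (limma, log2 fold change -2.18, SE 0.14, adjusted p = 1.1e-06). Slc7a3 went from 2.42, 2.90 and 2.35 to 0.03, 0.21 and 0.30 (limma, log2 fold change -3.39, SE 0.38, adjusted p = 3.3e-05), and the glycine carrier Slc6a9 from 1.32, 1.56 and 2.03 to 0.07, 0.05 and 0.12 (limma, log2 fold change -3.27, SE 0.26, adjusted p = 3.9e-06). Slc7a1 stayed well detected, while Slc7a3 and Slc6a9 were close to 0 in every library without IL-2. The cystine exchanger Slc7a11, measured only here, went from 0.20, 0.13 and 0.34 to 0, 0.01 and 0 FPKM (-1.60), and the aromatic amino acid carrier Slc16a10 fell by a log2 of 1.55. Slc19a1 went from 19.4, 21.9 and 22.4 to 3.86, 4.95 and 3.24 (limma, log2 fold change -2.39, SE 0.15, adjusted p = 1.1e-06). The nucleoside carrier Slc29a2, from 1.33, 1.92 and 2.09 to 0.53, 0.31 and 0.33 FPKM (-1.94), and the nucleobase carrier Slc43a3 (-1.46) fell, as did the ketone body carrier Slc16a6, from 44.6, 45.04 and 56.8 to 8.78, 9.27 and 8.91 FPKM (limma, log2 fold change -2.42, SE 0.11, adjusted p = 2.6e-07). Slc7a3, Slc6a9, Slc16a10 and Slc16a6 overlap another gene.

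Of 11 Slc39 zinc importers 6 mRNA were called lower and none higher, beside 13.9% and 14.3% of all genes. The difference was not tested. The median log2 fold change was -1.02, and the summed FPKM was 238 ± 4.52 with IL-2 and 139 ± 2.20 without. Slc39a8 (Entrez 67547, chr3:135816882-135888572) went from 14.3, 15.96 and 18.9 to 3.87, 3.58 and 3.93 FPKM (limma, log2 fold change -2.07, SE 0.12, adjusted p = 8.7e-07), and Slc39a14 from 27.3, 24.8 and 27.6 to 7.04, 7.53 and 6.42 (limma, log2 fold change -1.91, SE 0.10, adjusted p = 4.6e-07). The most abundant of the family, Slc39a7 of the endoplasmic reticulum, went from 66.8, 69.5 and 73.6 to 35.8, 34.4 and 32.8 (limma, log2 fold change -1.02, SE 0.08, adjusted p = 2.7e-06), and its log2 fold change was -0.95 without replicate 3. In all 3 genes the libraries without IL-2 were the lower ones. Slc39a10 (-1.26), Slc39a11 (-1.21) and Slc39a6 (-1.08, with -0.98 without replicate 1) also fell. Slc39a3 (log2 fold change 0.92, SE 0.11, adjusted p = 6.5e-05 in limma) and Slc39a13 (log2 fold change 0.59, SE 0.15, adjusted p = 0.00585 in limma) were higher without IL-2 but under the fold limit, which Slc39a3 passed without replicate 2 (1.02). Among 7 zinc exporters Slc30a4 (-1.49) and Slc30a2 (-1.10) fell. Slc30a2 had under 1 FPKM and lost its call in limma without replicate 1 (log2 fold change -0.66, adjusted p = 0.148) or 2 (-1.11, adjusted p = 0.0856). The copper importer Slc31a1 fell (-1.30), and the magnesium carriers Slc41a3 (1.69) and Slc41a2 (1.12, with 0.92 without replicate 3) rose. Slc39a8, Slc39a11, Slc39a13, Slc30a4 and Slc31a1 overlap another gene.

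Among 36 mitochondrial carriers 3 rose and 4 fell, beside 14.3% and 13.9% of all genes. The sum of the 36 was 1348 ± 58.9 FPKM with IL-2 and 1104 ± 8.87 without. The falls were Slc25a13 (-1.69), Slc25a1 (-1.30), Slc25a47 (-1.54) and Slc25a10 (-1.01, with -0.76 without replicate 3). Slc25a45 rose from 9.39, 9.84 and 7.97 to 50.5, 50.8 and 58.5 FPKM (limma, log2 fold change 2.54, SE 0.11, adjusted p = 2.0e-07) and Slc25a27 from 0.35, 0.14 and 0.21 to 1.40, 1.94 and 2.54 (limma, log2 fold change 2.64, SE 0.30, adjusted p = 3.6e-05). Both were clearly separated, Slc25a45 at a high level and Slc25a27 at a low one. Slc25a23 rose as well (1.85). The Slc35 family, with 19 mRNA, had 4 falls and 2 rises, beside 13.9% and 14.3% of all genes. The endoplasmic reticulum ATP carrier Slc35b1 went from 76.98, 71.1 and 73.1 to 25.4, 20.5 and 20.4 FPKM (limma, log2 fold change -1.74, SE 0.10, adjusted p = 6.9e-07). Slc35a4 (-1.31), Slc35d1 (-1.09) and Slc35c2 (-1.06, with -0.97 without replicate 3) fell. Slc35f5 (1.18, with 0.90 without replicate 2 and 0.99 without replicate 3) and Slc35b3 (1.10, with 0.85 without replicate 3) rose. Slc35a4, Slc35d1 and Slc35b3 overlap another gene.

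With 0.1 added, the steepest rise without IL-2 was that of the neutral amino acid carrier Slc6a19, from 1.35, 0.19 and 0.47 to 9.27, 7.99 and 10.8 FPKM (limma, log2 fold change 3.92, SE 0.47, adjusted p = 5.4e-05). Over the alternatives Slc22a3, from a mean of 0.01 to 0.42 FPKM, reached 4.75, against 4.53 at most for Slc6a19. With 1 replicate left out Slc6a19 ranged from 3.47 to 4.53 and Slc15a2 from 3.15 to 3.64. The peptide carrier Slc15a2 (Entrez 57738, chr16:36750161-36785158) went from 0.15, 0.27 and 0.18 to 1.98, 3.38 and 4.54 (limma, log2 fold change 3.45, SE 0.30, adjusted p = 7.5e-06) and the urea carrier Slc14a1 from 1.73, 1.91 and 0.80 to 8.29, 8.28 and 8.88 (limma, log2 fold change 2.53, SE 0.27, adjusted p = 2.5e-05). For Slc6a19, Slc15a2 and Slc14a1 the values with IL-2 varied between replicates but all lay far below those without. Another peptide carrier, Slc15a1, which was listed only in the CTL table, fell from a mean of 0.45 to 0.09 FPKM (-1.53). The potassium chloride cotransporter Slc12a7 went from 6.48, 6.67 and 5.89 to 35.4, 32.5 and 43.4 (limma, log2 fold change 2.52, SE 0.12, adjusted p = 3.2e-07), and the sulfate carrier Slc26a11 from 1.84, 1.35 and 1.28 to 12.4, 12.8 and 13.6 (limma, log2 fold change 3.05, SE 0.15, adjusted p = 4.0e-07). The endosomal exchanger Slc9a9 went from 17.9, 18 and 13.4 to 62.1, 60.97 and 56.7 FPKM (limma, log2 fold change 1.87, SE 0.12, adjusted p = 1.1e-06). Replicates were close to each other in all 3 of them. Of the relatives of Slc12a7, Slc12a5 (1.34) and Slc12a9 (1.06, with 0.96 without replicate 3) also rose. Slc6a19, Slc22a3, Slc15a2, Slc14a1, Slc26a11 and Slc9a9 overlap another gene.

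Lysosomal and other carriers rose beside them. The sialic acid carrier Slc17a5 went from 1.6, 1.48 and 0.79 to 5.40, 4.64 and 4.43 FPKM (limma, log2 fold change 1.88, SE 0.24, adjusted p = 8.4e-05), and the organic ion carrier Slc22a15 from 2.33, 1.99 and 1.64 to 7.57, 8.13 and 8.06 (limma, log2 fold change 1.96, SE 0.15, adjusted p = 2.9e-06). All libraries without IL-2 were above all with it. Slc38a9 (1.82), Slc46a3 (1.23), Slc43a2 (1.23), Slc2a9 (1.49), Slc50a1 (1.28) and Slc24a6 (1.49) rose. So did Slc2a8 (1.07) and the nucleoside carrier Slc28a2 (1.00), which were 0.97 and 0.80 without replicate 3, and the fatty acid carrier Slc27a1 (1.02), which was 0.94 without replicate 2. The proton-conducting Slc4a11 fell from 1.35, 1.98 and 1.23 to 0.33, 0.52 and 0.22 FPKM (limma, log2 fold change -1.85, SE 0.29, adjusted p = 3.0e-04), evenly across pairs. Markers of other cells moved both ways in the same libraries. Itgax had 0.21, 0.39 and 0.33 FPKM with IL-2 and 3.67, 5.17 and 4.81 without, Itgam had 0.29, 0.20 and 0.39 and 3.92, 3.89 and 4.46, and Cd79b had 6.30, 3.96 and 2.74 and 20.6, 15.7 and 10.8. Cd4 and Pecam1 were also called higher, Mpeg1 was called lower, and Cd68, Cd74, H2-Aa, H2-Ab1 and Klrb1c were not called. Whether these bear on any carrier was not tested. Slc38a9, Slc43a2 and Slc2a9 overlap another gene.

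The tables share no libraries, so the carriers that antigen changed can be set beside those that IL-2 withdrawal changed. Among the 161 carrier mRNA in both, 42 fell after TCR activation and 27 rose without IL-2, and 23 did both, against 10.1% of all genes in both tables. That was 85.2% of the 27, beside 74.6% for all genes. They include Slc6a19, Slc15a2, Slc14a1, Slc12a7, Slc25a45, Slc25a27, Slc25a23, Slc26a11, Slc9a9 and Slc28a2. The opposite pair, higher after activation and lower without IL-2, held 16 of the 161 mRNA, close to the 10.1% of all genes. These were 61.5% of the 26 that fell without IL-2, beside 76.6% for all genes. The 16 included carriers for amino acids (Slc6a9, Slc7a1, Slc7a3), nucleosides and nucleobases (Slc29a2, Slc43a3), folate (Slc19a1), zinc (Slc39a8, Slc39a10), copper (Slc31a1) and mitochondrial metabolites (Slc25a1, Slc25a10, Slc25a13, Slc25a47). Only Slc35f5 was higher in both comparisons, among 53 genes of the tables (10637 in both), and no carrier was lower in both, where the tables had 49. Without CTL replicate 3 the calls of Slc28a2 (0.80), Slc25a10 (-0.76) and Slc35f5 (0.99) were lost, as was that of Slc35b3 (0.85), which is among the 23. Without CTL replicate 2 those of Slc35f5 (0.90) and Slc27a1 (0.94) were lost, and without replicate 2 of the first table that of Slc17a5 (-0.94). Slc27a1 and Slc17a5 are among the 23 too. Of the carriers named here Slc6a19, Slc15a2, Slc14a1, Slc26a11, Slc9a9, Slc35b3, Slc6a9, Slc7a3, Slc39a8 and Slc31a1 overlap another gene.

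**Figure D3:**
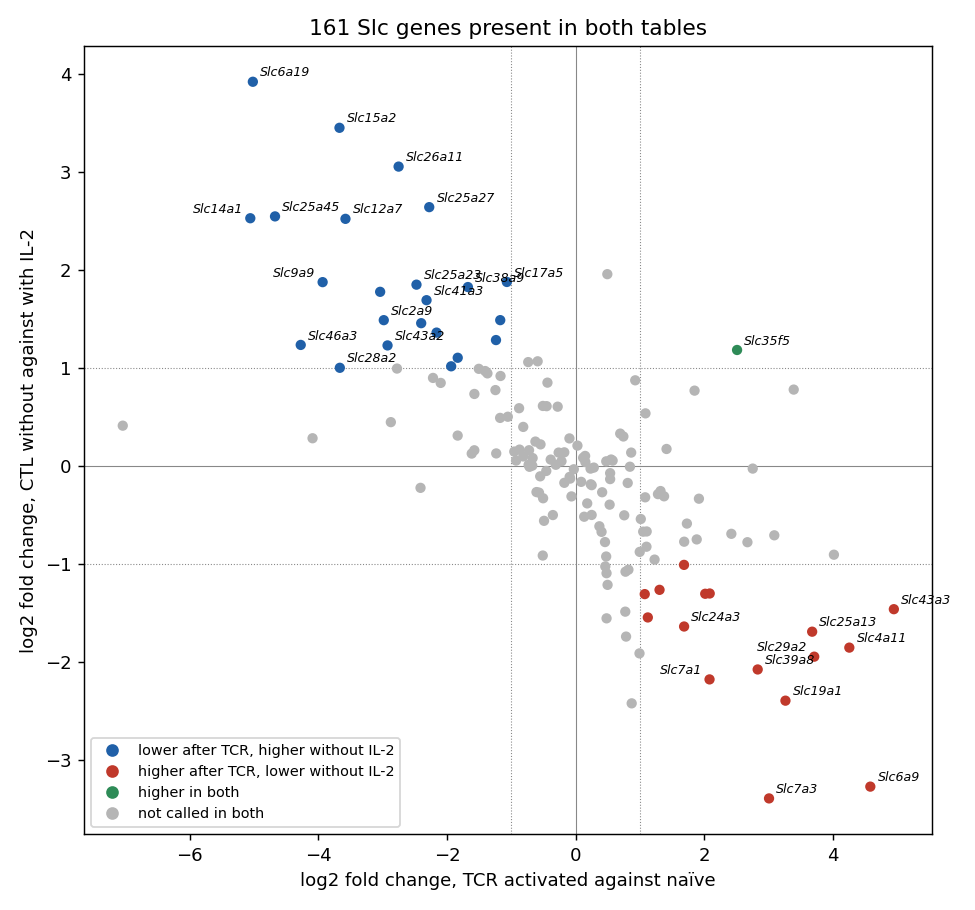
Log2 fold change of each solute carrier mRNA in both tables after TCR activation and after IL-2 withdrawal, from 2 tables that share no libraries, with some genes named.

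Genes that work with these carriers moved on activation too. The metallothionein mRNA, whose proteins bind zinc and copper, went from near 0 to high values. Mt1 had 0, 0.14 and 0 FPKM in naïve and 43.7, 20.6 and 21.8 in TCR activated cells (limma, log2 fold change 7.66, SE 0.37, adjusted p = 5.7e-09). Mt2 was blank in all naïve libraries, had 14, 10.6 and 12.9 FPKM in TCR activated cells and 6.67, 3.22 and 8.12 in PI3Kdi cells, where it was lower (limma, log2 fold change -1.14, SE 0.29, adjusted p = 0.0201). In CTL Mt1 fell from 297, 419 and 418 to 136, 159 and 161 without IL-2 (limma, log2 fold change -1.30, SE 0.14, adjusted p = 2.4e-05). In these comparisons the groups did not overlap. Mt1 had 26.8, 18.2 and 17.4 FPKM in PI3Kdi cells, which overlapped the TCR activated libraries, and was not called (limma, log2 fold change -0.40, SE 0.37, adjusted p = 0.505). The transferrin receptor Tfrc, which takes up the iron that Slc11a2 moves out of endosomes, had 21.6, 18.9 and 15.3 FPKM in naïve and 232, 239 and 202 in TCR activated cells (3.60), while Slc11a2 fell (-1.06, or -0.99 without replicate 3) and overlaps another gene.

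The c-Myc and MAX proteins bind the letters CACGTG, an E-box, and these were searched on both strands in the 250 bases before the transcript starts of a RefSeq promoter table (GRCm38.p6). A gene can have several such starts, and some lie inside the gene. The table held 143 of the 186 carriers, and 22 of them held an E-box (15.4%). Of the genes in either FPKM table that have a promoter there 10.0% did, as did 6.86% of all genes in the promoter table. Among carriers with a promoter that rose after TCR activation 7 of 33 held it, and among those that fell 7 of 32. A match is a description, not a site or a cause. To show the letters in carriers of both directions, 4 stretches are given 5′ to 3′ on the strand of the gene with the E-box in capitals, for Slc25a1 (chr16:17928406-17928469, minus strand) and Slc25a33 (chr4:149774268-149774322, minus strand), which rose, and Slc36a1 (chr11:55204262-55204339, plus strand) and Slc25a36 (chr9:97111176-97111275, minus strand), which fell. In these the E-box lies before the annotated gene.
Slc25a1: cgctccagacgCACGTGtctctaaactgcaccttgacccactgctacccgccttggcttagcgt
Slc25a33: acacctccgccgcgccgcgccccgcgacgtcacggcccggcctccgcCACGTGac
Slc36a1: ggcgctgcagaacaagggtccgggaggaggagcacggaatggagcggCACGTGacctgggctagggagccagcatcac
Slc25a36: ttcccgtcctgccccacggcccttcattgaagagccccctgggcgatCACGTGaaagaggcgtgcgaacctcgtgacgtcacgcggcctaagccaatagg

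The letters TGCGCNC or TGCACNC, the core of the metal response element, were searched in the same way on both strands. They lay before 4 of 7 Slc30 and 3 of 8 Slc39 genes with a known promoter, and before 44 of the 143 carriers (30.8%). Of the measured genes that have a promoter in the table, 34.4% held them, as did 23.8% of all genes in the promoter table.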

How the data were processed

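RNA sequencing of 15 mouse libraries was read from 2 tables that the authors deposited as FPKM. By their account STAR 2.5.2b aligned the reads to mm10, Subread 1.5.1 counted them, and the counts were filtered, TMM scaled and divided by gene length. The CTL table was assumed to be made the same way. Values have 2 decimals, blanks in the first table were read as 0, and 0 per-sample columns were left out. The second table ends in empty columns without a sample, which were dropped. No read totals are given, so depth is unknown and no limit of detection was set.

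Carriers were taken by symbol, without the 10 named above, and matched to RefSeq by Entrez identifier, or for 1 of them by a synonym. The members and lists were chosen with earlier results of these data known. Libraries were grouped by title and replicate number. The treatment labels of CTL with IL-2 name IL3 in replicate 2 and IL4 in replicate 3, and all 6 CTL treatment labels begin with BR1, so the CTL groups and pairs rest on the titles and replicate numbers. The limma 3.58.1 package in R 4.3.3 fitted log2(FPKM + 0.1) with an intensity trend, each table in its own fit, with Benjamini-Hochberg adjustment over all genes of the table. The fit was tested on simulated data. Python 3.11.15, pandas 2.3.3, numpy 2.4.6 and matplotlib 3.10.9 were used for the rest.

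Pairing in the first table rests on the pools that were divided between conditions, and in CTL on the numbers in the labels, and no label says that equal numbers mark one pool. Deviations from group means correlated between same-numbered TCR activated and PI3Kdi libraries at 0.27, 0.20 and 0.51, CTL libraries at 0.12, 0.17 and 0.26, and naïve and TCR activated libraries at -0.14, 0.23 and -0.18. Between differently numbered libraries the range was -0.45 to 0.19 for TCR activated and PI3Kdi cells. It was -0.20 to 0.09 for CTL, and -0.31 to 0.38 for naïve and TCR activated cells. Equal numbers thus did not mark the closest naïve and TCR activated libraries in every pair. Genes named with FPKM of each library in 1 comparison or more were all those called with PI3Kdi, the 10 largest rises and falls of each other comparison with a mean FPKM of at least 1 in either group compared, the highest member of each family of at least 5, and members of the lists picked after their values were seen. Alternatives were a pseudocount of 1 or 0.01, genes of mean FPKM 1 or more only, scaling by medians, the replicate as a block, no trend, only the groups compared, other fold limits, and leaving out each replicate or the TCR activated library of replicate 1.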

Additional observations from a re-analysis of the deposited data

How the results depend on the processing

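Values of named carriers were compared under the alternatives. Direction and side of the threshold were kept in 2057 cases, the call was lost in 91 and gained in 15, and the direction turned in 12, none of them called. The alternative without the TCR activated library of replicate 1 was added after seeing the data, as were rows for 5 further carriers. After TCR activation leaving out a replicate gave 43 to 45 higher and 45 to 46 lower mRNA. Without a fold limit there were 77 and 72, because that limit is the one lifted. A pseudocount of 1 gave 33 and 34, and ended the calls of Slc15a3, Slc20a2, Slc22a21, Slc24a3, Slc25a32, Slc25a47, Slc35e4, Slc35f5, Slc46a1, Slc6a8, Slc9a2 and Slc9a3r2 among the rises and of Slc11a2, Slc17a5, Slc22a17, Slc24a6, Slc25a29, Slc35a5, Slc37a2, Slc3a1, Slc4a4, Slc52a3 and Slc9a7 among the falls. With PI3Kdi leaving out a replicate gave 1 to 5 higher and 1 to 2 lower, which is fewer samples, and 6 higher without the TCR activated library of replicate 1. A pseudocount of 1 gave 1 and 1, one of 0.01 gave 5 and 2, ending the calls of Slc2a6 and Slc35d3 and adding Slc46a3 among the lower, a mean FPKM of at least 1 gave 0 lower, no fold limit gave 15 and 16, and a limit of 1.5 or 0.67 gave 9 and 6. Without IL-2 leaving out a replicate gave 27 to 37 higher and 29 to 34 lower. A pseudocount of 1 gave 20 and 21, ending the calls of Slc12a5, Slc12a9, Slc22a3, Slc27a1, Slc28a2, Slc2a8, Slc35f5, Slc36a3, Slc38a6, Slc41a2 and Slc46a3 among the rises and of Slc15a1, Slc17a8, Slc25a10, Slc25a47, Slc29a2, Slc30a2, Slc35d1, Slc4a10, Slc4a11, Slc5a11 and Slc7a11 among the falls, no fold limit 54 and 65, and a limit of 1.5 or 0.67 gave 47 and 49. The replicate block changed no call of a carrier but that of Slc15a2. Median scaling, which shifted the first comparison by 0.08 and CTL by 0.07, ended the calls of Slc11a2 (-0.98) and Slc17a5 (-0.99) after TCR activation. In CTL it ended those of Slc25a10 (-0.94), Slc35c2 (-0.99) and Slc39a7 (-0.95). Median scaling also added rises, of Slc12a8, Slc39a14 and Slc5a3 after TCR activation and of Slc17a9, Slc25a36, Slc35d2 and Slc37a3 in CTL. Of these Slc5a3 and Slc17a9 overlap another gene.

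The turned log2 fold changes with PI3Kdi ranged over the left-out replicates from -0.077 to 0.27 for Slc25a5, -0.49 to 0.090 for Slc27a6 (0.054 without replicate 2), -0.12 to 0.14 for Slc17a5, and -0.21 to 0.064 for Slc25a13 (0.026 without replicate 3). For Slc9a5 they reached -0.53. Without the TCR activated library of replicate 1 Slc25a5 was at -0.062, Slc7a3 at 0.088 and Slc9a5 at 0.044. In CTL Slc15a3 ranged from -0.24 to 0.088, with 0.073 without replicate 3 and 0.043 with median scaling. The cause was not tested. Depth is unknown, so carriers listed at or near 0 cannot be called absent. Of the carriers named here Slc15a3, Slc20a2, Slc22a21, Slc24a3, Slc46a1, Slc6a8, Slc11a2, Slc37a2, Slc3a1, Slc4a4, Slc9a7, Slc22a3, Slc36a3, Slc38a6, Slc35d1, Slc15a2, Slc9a5 and Slc7a3 overlap another gene.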

Other observations

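Each TCR activated library was set beside the log2 mean of its group's other libraries. Of mRNA at a mean FPKM of 1 or more, some lay more than 2-fold away. These made up 1.98% in replicate 1, 0.65% in replicate 2 and 1.98% in replicate 3. In replicate 1 the carriers above were Slc25a27, Slc4a11, Slc6a9, Slc7a3 and Slc9a5, and Slc6a19 was below. In replicate 2 Slc15a2 and Slc6a9 were below. In replicate 3 Slc15a2 and Slc6a19 were above and Slc4a11, Slc6a9 and Slc7a3 below. Slc6a9, Slc7a3, Slc9a5, Slc6a19 and Slc15a2 overlap another gene. Slc7a3 had 8.90, 1.97 and 1.42 FPKM in TCR activated and 2.85, 1.51 and 1.31 in PI3Kdi cells. In CTL with IL-2 Slc52a3, a riboflavin carrier, had 21.99, 24.4 and 21.03 FPKM, beside 1.48, 1.08 and 1.53 in naïve cells of the other table, with which it was not compared.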
